A study of Mus musculus with 8 samples.

Results

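Ostn encodes musclin, also called osteocrin, a small peptide that skeletal muscle secretes, and it was followed here as 1 gene of 14860 measured in mouse muscle after its nerve was cut. It was taken as the gene of the probe set annotated with the single symbol Ostn, and only 1 probe set carries that symbol. It was selected on the difference of this signal between denervated and innervated muscle within each replicate number, so its values are given as a description, without a test. The groups were denervated tibialis anterior, from the leg whose left sciatic nerve had been transected 7 days earlier (4 arrays), and innervated tibialis anterior, from the opposite leg of operated mice (4 arrays). All mice were C57BL/6 males aged 8 weeks. The innervated muscle is thus an intact muscle of an operated mouse and not that of a sham-operated one, and the labels do not say how many mice were used or whether arrays of a group came from separate mice. Each value is a log2 intensity, so that a difference of 1 is a 2-fold difference in signal.

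Musclin belongs to the wider family of natriuretic peptides. In mice it is made mainly by fast muscle fibres and by bone-forming cells, and it binds the natriuretic peptide receptor Npr3. That receptor carries no cyclase domain and is known for taking up and clearing the natriuretic peptides Nppa, Nppb and Nppc, whose signalling receptors Npr1 and Npr2 make cyclic GMP. In mouse muscle Ostn expression is known to respond to feeding, to insulin through Akt and Foxo1, and to exercise.

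Array medians lay between 5.84 and 6.00. Both arrays of replicate 3 had a narrower spread than the rest: the SD of their probe sets was 1.25 for denervated and 1.36 for innervated muscle, against 1.45 to 1.56 elsewhere. Denervated replicate 3 also stood apart in leukocyte markers, with Ptprc at 9.34 against 5.97 to 6.10 on the other denervated arrays. Without replicate 3 the Ostn difference given next was -3.26. Beside the labels of the nerve injury, 12 genes known to rise after denervation were read. They were chosen with earlier results of these data known, so they are no independent check of the labels. Of the 11 that were measured 10 rose and none fell; their median change was 1.39 ± 0.44, where the error, here and for the lists below, is the SD of the medians of the 4 pairs. The acetylcholine receptor gene Chrna1 rose by 2.89, and Cdkn1a, a cell-cycle inhibitor, by 2.67. Over all genes 8.45% passed the same test (3.56% higher and 4.89% lower), which was limma with group and replicate number as terms and a Benjamini-Hochberg adjusted p under 0.05. Counts of calls move with the arrays used: 7 to 11 of these genes rose when any 1 replicate number was left out.

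Ostn gave a far weaker signal in denervated muscle, and every denervated array lay well below every innervated one. Ostn read 4.69, 4.91, 4.72 and 4.51 in denervated replicates 1 to 4, against 8.56, 7.69, 8.17 and 7.63 in innervated replicates 1 to 4. The groups were 4.71 ± 0.16 in denervated and 8.01 ± 0.44 in innervated muscle (mean ± SD, n = 4 each). The fitted difference, denervated minus innervated, was -3.31 (SE 0.18), or 9.89-fold lower, which leaves 10.1% of the innervated signal. The highest denervated value and the lowest innervated value were 2.72 apart. Over all genes 7.4% had every denervated array below every innervated one, and by the width of this gap Ostn ranked 4, after Cmbl (3.13), Smox (2.99) and Ano5 (2.91). In bulk muscle, fewer cells that make a transcript and less of it per cell cannot be told apart.

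**Figure D1:**
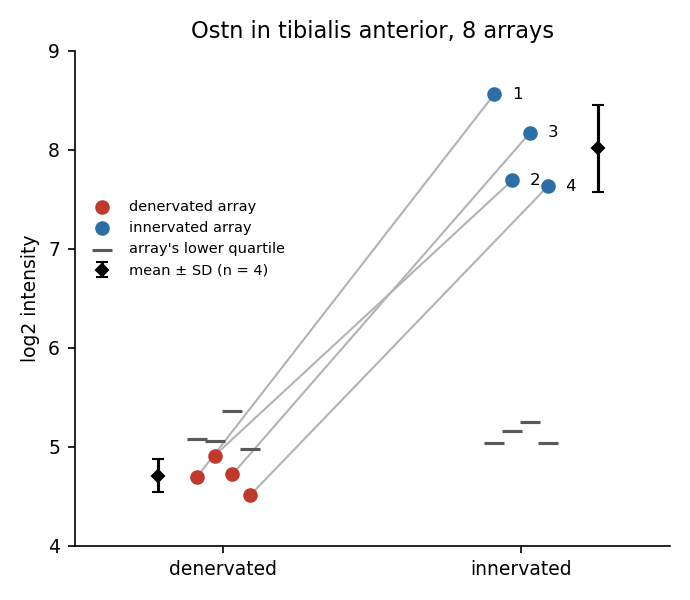
Ostn log2 intensity on each array, with denervated arrays in red on the left and innervated arrays in blue on the right; grey lines join arrays of the same replicate number, grey dashes mark each array's own lower quartile over probe sets, and diamonds give the mean ± SD of 4 arrays. All 4 denervated points lie between 4.51 and 4.91, below the dashes of their arrays, and all 4 innervated points lie between 7.63 and 8.56.

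Within the replicate numbers the size of the difference varied. It was -3.87 for replicate 1, -2.78 for replicate 2, -3.45 for replicate 3 and -3.12 for replicate 4, or 14.6-, 6.88-, 10.9- and 8.68-fold lower. Ostn was among the 6 genes with the largest fall in each of the 4 pairs, and came second in pair 1. The SD of the 4 pair differences was 0.47, against a median of 0.24 over all genes. That spread came mostly from the innervated side. The innervated arrays ranged over 0.93 and had an SD of 0.44, larger than that of 94.7% of genes, whereas the denervated arrays ranged over 0.40 and had an SD of 0.16, larger than that of 29.9% of genes. Innervated replicates 1 and 3 were the high ones and replicates 2 and 4 the low ones.

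The smallest difference, in pair 2, combined the highest denervated with the second lowest innervated value. Pair 2 was also where other strong falls were smallest. Of the 182 genes that passed the test and were at least 2-fold lower, 106, or 58.2%, had their smallest fall in pair 2, against 21, 37 and 18 in pairs 1, 3 and 4.

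On the denervated arrays Ostn stood 0.39, 0.15, 0.64 and 0.47 below the lower quartile of the array in replicates 1 to 4. On the innervated arrays it stood 3.52, 2.54, 2.92 and 2.59 above it. Between 9.62% and 20% of genes read lower on a denervated array, and between 86.1% and 93.7% on an innervated one. The deposited table holds no detection values, so the denervated signal cannot be told from background, and the fold is one of intensity rather than of transcript number.

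In the order of the fitted change over all genes Ostn ranked 4 among the falls. The genes just below it in value were the spermine oxidase gene Smox (-3.47, SE 0.10) and Ano5 (-3.39, SE 0.14), an anoctamin of the muscle membrane. The genes just above it were Dhrs7c (-3.28, SE 0.14), a reductase of the sarcoplasmic reticulum, and Fbp2 (-3.01, SE 0.23), the muscle fructose-bisphosphatase. The differences between Ostn and its neighbours Ano5 and Dhrs7c in this order were smaller than the SE of either. With Ostn, 6 genes were lower by more than 3 on the log2 scale.

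**Figure D2:**
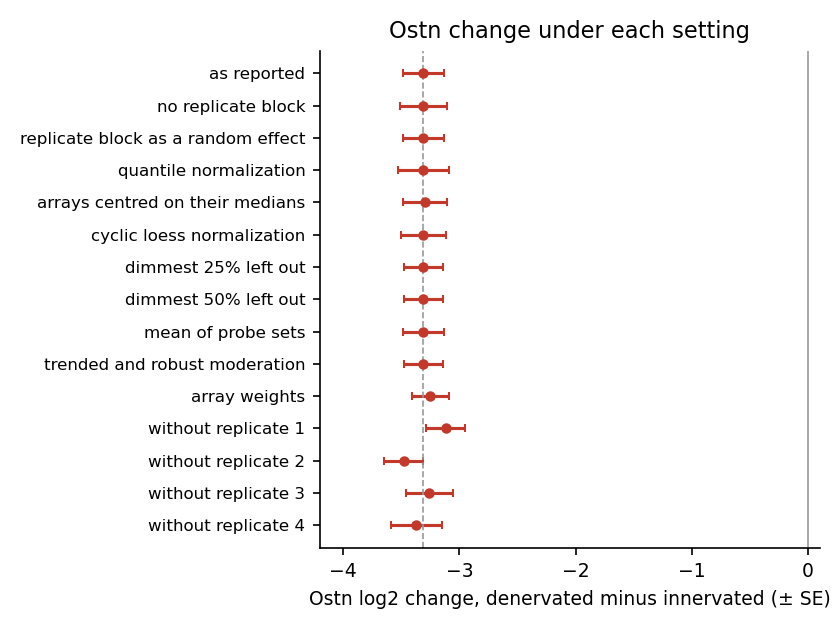
The fitted Ostn log2 change, denervated minus innervated, with its SE as horizontal bars, as reported (top, dashed line) and under 14 other settings of the processing. The change stays between -3.48, without replicate 2, and -3.12, without replicate 1.

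No other setting moved the Ostn difference by as much as the spread of its 4 pairs, but most settings could not. Changes of block, moderation, probe-set averaging and dim genes left out leave the fitted Ostn difference as it is. Leaving out 1 of 4 pairs can shift their mean only by less than their SD. Over 14 alternatives, which covered normalization, dim genes, the replicate block, moderation, array weights and each replicate number left out, it ran from -3.48 to -3.12, and its rank in the order was 4 or 5.

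The genes whose profile over the 8 arrays was most like that of Ostn were found by the root mean square difference of log2 values, after each gene's own mean had been subtracted. The closest was Cmbl, a hydrolase gene, at 0.21, followed by Ano5 at 0.32, Fbp2 at 0.34, Smox at 0.37 and Dhrs7c at 0.42. Mlf1, which encodes myeloid leukaemia factor 1 (0.44), Rpl3l, a muscle form of a large-subunit ribosomal protein (0.49), and Nrep (0.53) completed the 8, and the next gene lay at 0.56. This measure rests on the difference between the groups, so it picks genes with a fall of similar size.

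Cmbl read 4.76, 5.08, 4.78 and 4.73 in denervated replicates 1 to 4, against 8.76, 8.21, 8.45 and 8.35 in innervated replicates 1 to 4. Its groups did not overlap, and its highest denervated array was replicate 2, as it was for Ostn, Fbp2 (6.87), Ano5 (6.22) and Rpl3l (7.37). The measure of likeness already uses this order of arrays, so it is no separate resemblance. The pair differences of Smox were -3.38, -3.40, -3.57 and -3.54. Nrep was the one that depended on the processing. It left the 8 under quantile or cyclic loess normalization and on leaving out replicate 2, 3 or 4, while the other 7 stayed in all 10 settings in which the profiles were compared.

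**Figure D3:**
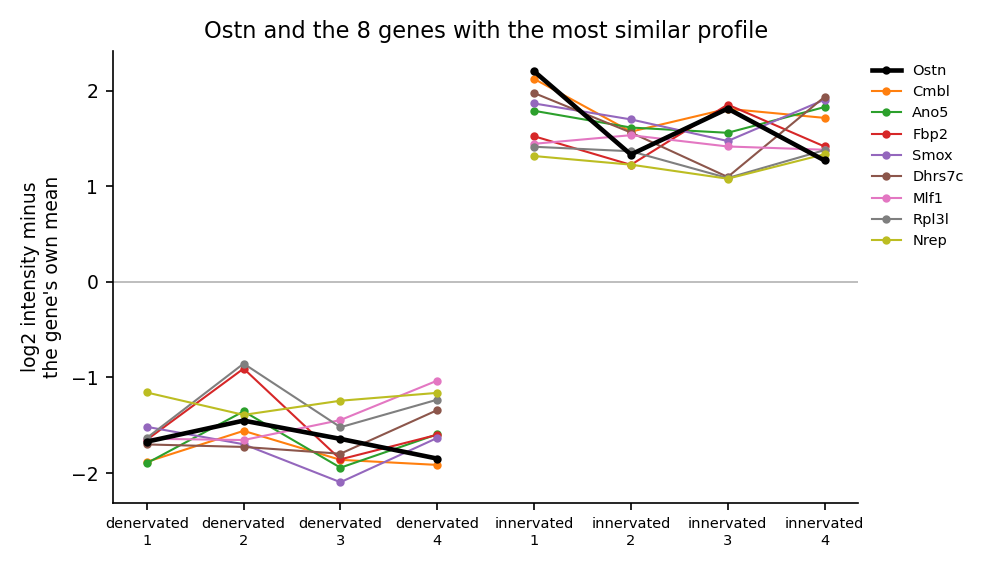
Log2 intensity minus the gene's own mean over 8 arrays, for Ostn (thick black line) and the 8 genes with the most similar profile, with the denervated arrays left and the innervated arrays right. All 9 genes lie below 0 on the denervated and above 0 on the innervated arrays, and Ostn, Cmbl, Dhrs7c and Rpl3l peak on innervated replicate 1.

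The receptor that binds musclin moved in the opposite direction. Npr3 read 6.76, 7.60, 7.28 and 7.20 in denervated replicates 1 to 4, against 6.22, 6.32, 6.71 and 6.34 in innervated replicates 1 to 4. Every denervated array was above every innervated one, as was so for 5.32% of all genes, although denervated replicate 1 and innervated replicate 3 were only just apart. Npr3 rose by 0.81 (SE 0.15, limma adjusted p = 0.0159), or 1.75-fold, from pair differences of 0.54, 1.28, 0.56 and 0.86. With 3 pairs the call was lost without replicates 1, 2 and 4 (adjusted p of 0.062, 0.0517 and 0.0722), at changes of 0.90, 0.65 and 0.79.

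Npr3 was the only one of 6 natriuretic peptide and receptor genes to pass (16.7%, against 8.45% over all genes). The median change of the 6 was -0.08 ± 0.17, and 2 of them had an unadjusted limma p under 0.05, against 21.7% of all genes. Npr2, the cyclase receptor for Nppc, read 6.76, 6.80, 5.75 and 6.88 in denervated replicates 1 to 4, against 7.21, 6.94, 6.57 and 7.39 in innervated replicates 1 to 4. Its difference of -0.48 (SE 0.13) was negative in all 4 pairs and missed the threshold (adjusted p = 0.0696). Npr2 passed after cyclic loess normalization (0.0462), with array weights (0.0281) and on omitting the dimmest 25% or 50% of genes (0.0399 and 0.0277). It did not pass under the other settings, and was far from the threshold without the replicate block (0.421) and with the block as a random effect (0.188). Npr1, the cyclase receptor for Nppa and Nppb, differed by -0.17 (SE 0.11, adjusted p = 0.451). The natriuretic peptide genes differed by 0.00 for Nppa (SE 0.16), -0.09 for Nppb (SE 0.12) and -0.07 for Nppc (SE 0.14), with overlapping groups for each. Nppa averaged 4.88 in both groups, and Nppb 4.42 in denervated and 4.51 in innervated muscle. These means lie below the lowest of the arrays' lower quartiles (4.98), so both genes had little room to fall and their signal cannot be told from background. Nppc averaged 6.54 in denervated and 6.61 in innervated muscle.

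**Figure D4:**
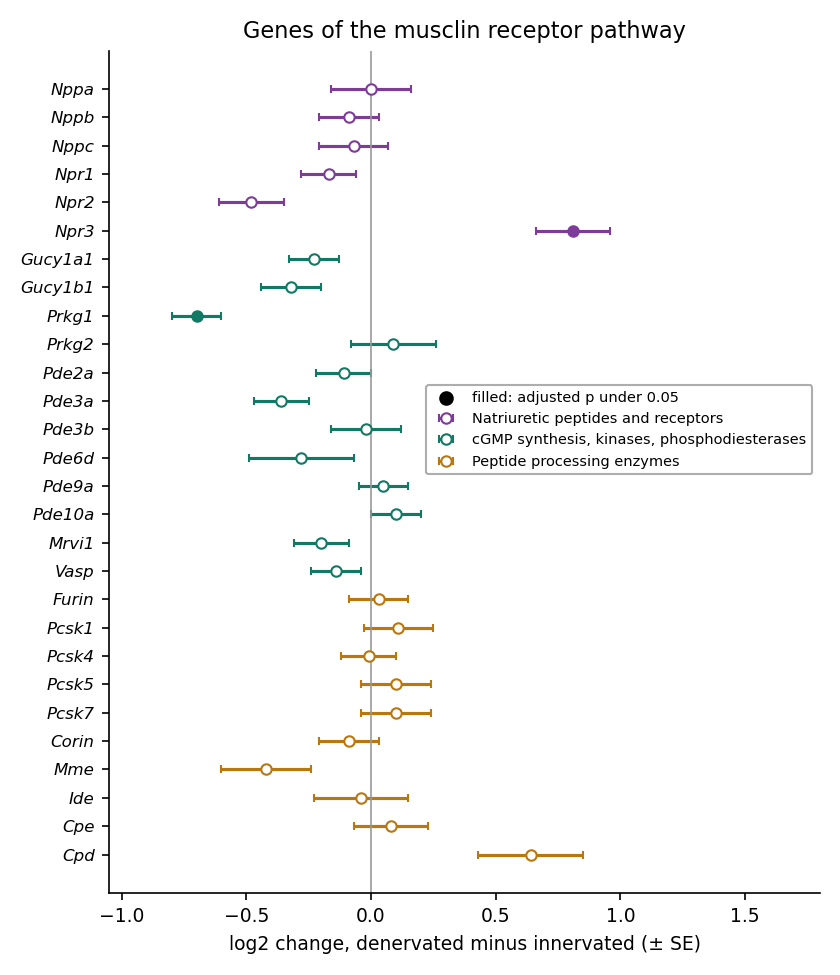
Log2 change, denervated minus innervated, with its SE for the natriuretic peptide and receptor genes, the cyclic GMP genes and the peptide processing genes; filled points passed an adjusted p under 0.05. Npr3 lies to the right at 0.81 and Prkg1 to the left at -0.70, and the other points are open.

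Of 12 measured genes related to cyclic GMP synthesis, action and breakdown 1 fell and none rose, a share (8.33%) close to the 8.45% called over all genes. That gene was Prkg1, the cyclic GMP-dependent kinase I. It read 5.82, 6.22, 5.78 and 6.10 in denervated replicates 1 to 4, against 6.61, 6.75, 6.47 and 6.90 in innervated replicates 1 to 4. Prkg1 fell by 0.70 on the log2 scale (SE 0.10, limma adjusted p = 0.00789), with groups that did not overlap. The call was lost without replicates 1 and 4 (adjusted p of 0.0656 and 0.0557), with the change at -0.67 in both cases. The median over the 12 genes was -0.17 ± 0.06, against -0.01 over all genes, and 3 of the 12 had an unadjusted p under 0.05, as did 21.7% of all genes.

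None of 10 measured peptide processing genes passed limma's test, and 2 of them had an unadjusted p under 0.05, the share of all genes being 21.7%. Furin, a convertase that cuts many propeptides at basic residues, averaged 6.55 ± 0.14 in denervated and 6.52 ± 0.12 in innervated muscle, a difference of 0.03 (SE 0.12). Their median change was 0.06 ± 0.06, and -0.02 without replicate 1. The carboxypeptidase gene Cpd had the largest difference, 0.64 (SE 0.21, adjusted p = 0.112), and was named after its values were seen. It passed without replicate 3 (0.93, adjusted p = 0.00244), with array weights (0.85, 0.00514), after cyclic loess normalization (0.69, 0.0424) and with the dimmest 50% of genes left out (0.64, 0.0473).

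Among 16 measured genes of the insulin, Akt and FoxO pathway 1 rose and 1 fell (12.5% called, against 8.45% over all genes). Before adjustment 7 of the 16 had a limma p under 0.05, against 21.7% of all genes. The median change was 0.01 ± 0.17. Irs1, the insulin receptor substrate that links the receptor to phosphoinositide 3-kinase, fell by 0.91 on the log2 scale (SE 0.11, limma adjusted p = 0.00354). It read 6.12, 6.00, 5.55 and 5.70 in denervated replicates 1 to 4, against 6.86, 7.03, 6.35 and 6.79 in innervated replicates 1 to 4. These groups did not overlap. The kinase gene Akt1 rose by 0.68 (SE 0.14, adjusted p = 0.0276), with overlapping groups of 7.08 ± 0.52 in denervated and 6.40 ± 0.27 in innervated muscle. The call for Akt1 was lost without the replicate block (adjusted p = 0.173), with the block as a random effect (0.0519) and when replicate 1 or replicate 4 was left out (0.125 and 0.118).

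The transcription factor Foxo1, which is known to bind insulin-regulated genes, read 7.76, 7.46, 6.94 and 7.49 in denervated replicates 1 to 4, against 7.19, 7.26, 6.83 and 7.06 in innervated replicates 1 to 4. It was higher in all 4 pairs, but the difference of 0.33 (SE 0.12) missed the threshold (adjusted p = 0.151) and passed only with array weights (0.39, adjusted p = 0.0371). Foxo3 differed by 0.07 (SE 0.11) and the insulin receptor gene Insr by -0.15 (SE 0.13), and neither passed. Without replicates 1 and 4 no member of this list rose, and without replicate 3 there were 3 rises, while the fall of Irs1 was called each time.

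Of 23 measured calcium and activity dependent regulators 2 rose and 4 fell (26.1% called, against 8.45% over all genes), with a median of -0.06 ± 0.07. An unadjusted limma p under 0.05 was reached by 11 of the 23, against 21.7% of all genes. Ppargc1a, the coactivator PGC-1 alpha, which exercise induces in muscle, fell by 1.57 on the log2 scale (SE 0.19, adjusted p = 0.00358). It read 7.43, 8.12, 6.52 and 8.10 in denervated replicates 1 to 4, against 9.09, 9.19, 8.79 and 9.39 in innervated replicates 1 to 4. Camk2a, a subunit of the calcium and calmodulin dependent kinase II, fell by 1.37 (SE 0.11, adjusted p = 0.00074), with tight groups of 6.74 ± 0.19 in denervated and 8.11 ± 0.03 in innervated muscle. Hdac4, a class IIa histone deacetylase that restrains MEF2 factors, rose by 1.23 (SE 0.17, adjusted p = 0.00549). The kinase subunit gene Camk2d rose by 0.73 (SE 0.18, adjusted p = 0.0461), but lost its call without the block (0.105), with arrays centred on their medians (0.0716) and on leaving out replicate 1, 2 or 4 (0.19, 0.161 and 0.18), where 1 gene rose. Without replicate 1 the number of falls was 2.

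The other 2 genes of this list that fell were Hdac9 (-0.96), lost without replicates 1 and 4 (adjusted p of 0.121 and 0.115), and the calcineurin subunit gene Ppp3cb (-0.65), lost without replicates 1 and 2 (0.0871 and 0.0536). Of the MEF2 genes, which encode activity dependent transcription factors, Mef2c averaged 10.90 ± 0.35 in denervated and 10.95 ± 0.15 in innervated muscle, a difference of -0.06 (SE 0.12). Mef2d varied widely on the denervated arrays, at 4.27, 5.97, 6.44 and 4.56, against 6.42, 6.20, 6.25 and 5.77 on the innervated ones. Its difference of -0.85 (SE 0.34) did not pass (adjusted p = 0.206), except with array weights (-1.10, adjusted p = 0.0305).

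Other secreted muscle factors moved in both directions. The size of their changes cannot be weighed against that of Ostn, which was selected on its change. Of 39 measured genes on a list of reported myokines, which did not include Ostn, 3 rose and 5 fell, and the median was -0.03 ± 0.14. The share called was 20.5%, against 8.45% over all genes, and 12 of the 39 had an unadjusted limma p under 0.05, against 21.7% of all genes. Some members had little room to fall, such as Il6, at 3.22 in denervated and 3.29 in innervated muscle, and Lif, at 4.35 and 4.27. Mstn, which encodes the growth inhibitor myostatin, fell by 1.58 on the log2 scale (SE 0.27, adjusted p = 0.0137). It read 9.25, 9.17, 7.82 and 8.64 in denervated replicates 1 to 4, against 10.43, 10.01, 10.52 and 10.23 in innervated replicates 1 to 4, and without replicate 1 it missed the threshold (adjusted p = 0.0662). Fndc5, the precursor of irisin, fell by 1.15 (SE 0.11, adjusted p = 0.00132), with 6.65 ± 0.16 in denervated and 7.80 ± 0.19 in innervated muscle. The remaining falls were those of Vegfa (-0.87), Ntf5 (-0.43) and Vegfb (-0.43); Ntf5 was lost without the block (adjusted p = 0.0807) and on leaving out replicate 1, 2 or 4 (0.156, 0.103 and 0.206), and Vegfb without replicates 1, 2 and 4 (0.137, 0.116 and 0.186).

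The 3 myokine genes that rose were Postn, which encodes the matrix protein periostin, Fst, which encodes the activin and myostatin binder follistatin, and the proteoglycan gene Lum. Postn rose by 1.67 (SE 0.29, adjusted p = 0.0142), unevenly, with pair differences of 0.67, 2.06, 2.67 and 1.27, and without replicate 2 it missed the threshold (0.0646). Fst rose by 0.73 (SE 0.14) and Lum by 0.60 (SE 0.10). Without replicates 1, 2 and 4 the calls of Fst (adjusted p of 0.0822, 0.0652 and 0.0813) and Lum (0.0731, 0.0554 and 0.0673) were lost. Without replicates 1, 2 and 4 the list had 1, 0 and 1 rises and 2, 3 and 3 falls.

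Of 16 measured genes of fast fibres, in which Ostn is known to be most abundant, 8 fell and none rose. The share called was 50% of these genes, against 8.45% over all genes. Before adjustment 11 of the 16 had a limma p under 0.05, against 21.7% of all genes. Their median was -0.50 ± 0.19, but quantile normalization gave -0.27 and cyclic loess -0.29. Myoz1, a Z-disc protein gene, had the largest change at -1.81 (SE 0.14, adjusted p = 0.000558), with 8.61 ± 0.32 in denervated and 10.42 ± 0.12 in innervated muscle. Pgam2, the muscle phosphoglycerate mutase gene, fell by 1.55 (SE 0.17, adjusted p = 0.00244). Without replicates 1 and 4 the falls numbered 4 and 5. Of 10 measured slow-fibre genes 1 rose and 2 fell (30% called), with a median of -0.11 ± 0.61, and 5 had an unadjusted limma p under 0.05. The rise was that of Sln, the sarcolipin gene, at 2.66 (SE 0.21, adjusted p = 0.00074). The falls were those of the myosin light chain gene Myl2 (-1.25) and the phospholamban gene Pln (-0.57). Myl2 was lost without the block (adjusted p = 0.127), under each of the other normalizations (quantile 0.0823, median 0.0569, cyclic loess 0.0549) and on leaving out replicate 1, 3 or 4 (0.0968, 0.0563 and 0.102). Pln was lost without replicates 1, 2 and 4 (0.0994, 0.0546 and 0.143). When replicates 1 to 4 were left out in turn, the slow-fibre falls numbered 0, 1, 1 and 0, and 2 genes rose without replicate 1.

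The genes on either side of Ostn on its chromosome, in the order of the GRCm38.p6 annotation, did not share the size of its difference. All of those read here except Ccdc50 were dim in innervated muscle too, so they had little room to fall. Their innervated means ran from 4.24 for Gmnc to 5.26 for Il1rap, against 4.71 for Ostn in denervated muscle. Whether the fall was particular to Ostn at this place was therefore not tested. On one side the nearest measured genes were Gmnc, a regulator of multiciliated cells, at -0.11 (SE 0.12), the interleukin-1 receptor subunit gene Il1rap at 0.00 (SE 0.11) and the claudin gene Cldn16 at 0.08 (SE 0.10). On the other side they were the urotensin 2B gene Uts2b at -0.04 (SE 0.16), Ccdc50 at -0.54 and the fibroblast growth factor homologue gene Fgf12 at 0.01 (SE 0.10). Ccdc50 alone passed. It read 11.21, 10.80, 11.19 and 10.99 in denervated replicates 1 to 4, against 11.47, 11.54, 11.72 and 11.62 in innervated replicates 1 to 4, a fall with an SE of 0.12 and an adjusted p of 0.0318 by limma. The call for Ccdc50 was lost after quantile (-0.33, adjusted p = 0.213) or cyclic loess (-0.35, 0.186) normalization, and on leaving out replicate 1, 2 or 4 (0.0718, 0.125 and 0.154).

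**Figure D5:**
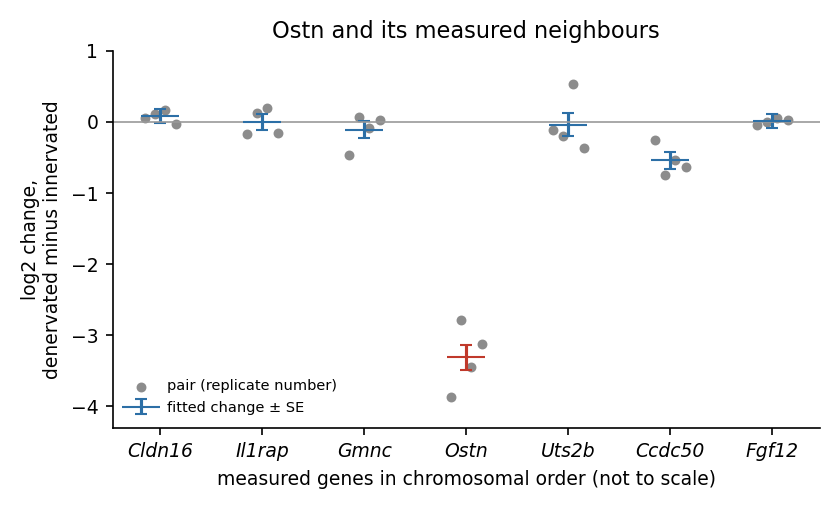
Log2 change, denervated minus innervated, of Ostn and the 3 measured genes on each side in chromosomal order, with grey points for the 4 pairs and bars for the fitted change ± SE. Ostn lies at -3.31 and its neighbours between -0.54 and 0.08.

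Markers of the cells a muscle sample can hold were read beside these results. Of 8 measured muscle fibre markers 2 fell and none rose (25% called, against 8.45% over all genes), and the median was -0.22 ± 0.24. The falls were those of Pygm, the muscle glycogen phosphorylase gene (-1.35, SE 0.19), and the creatine kinase gene Ckm (1.99-fold lower, SE of the log2 change 0.14). Des, the desmin gene, differed by 0.30 (adjusted p = 0.177) and passed after quantile (0.0404) or cyclic loess (0.0268) normalization, with array weights (0.0399) and without replicate 3 (0.0491). Their mean level ranged from 9.85 to 10.73 on denervated and from 10.51 to 11.08 on innervated arrays. For bone-forming cells, the other known source of Ostn, none of 7 measured markers passed limma's test. Of the 7, 1 had an unadjusted limma p under 0.05, the share of all genes being 21.7%. Their mean level ranged from 4.90 to 5.32 on denervated and from 4.98 to 5.14 on innervated arrays, and their median change was 0.02 ± 0.12. Most of these markers were dim in innervated muscle too, so they had little room to fall. Ibsp (4.58), Phex (4.54) and Mepe (4.42) averaged less there than the lowest of the arrays' lower quartiles (4.98). With the dimmest 25% of genes left out, 2 of the 7 remained. Whether bone-forming cells became fewer was therefore not tested.

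Of 9 measured leukocyte markers 3 rose (33.3% called, against 8.45% over all genes) and 6 did not pass. The rises were those of Tyrobp, an adaptor of myeloid receptors (1.56, SE 0.13), the macrophage marker Cd68 (1.19, SE 0.10) and the lysosomal protein gene Laptm5 (0.84). Laptm5 was lost under 7 settings, with adjusted p from 0.0505 to 0.158, among them without the block. The median change of the 9 was 0.51 ± 0.36, and 0.43 without replicate 3. Before adjustment 7 of the 9 had a limma p under 0.05, against 21.7% of all genes.

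The mean level of the leukocyte markers was 6.41, 6.18, 7.58 and 6.28 in denervated replicates 1 to 4, against 5.88, 5.82, 6.10 and 5.72 in innervated replicates 1 to 4. Denervated replicate 3 was thus far above the other denervated arrays. Those also lay above all innervated ones, most narrowly denervated replicate 2 (6.18) against innervated replicate 3 (6.10). In every pair the denervated array was the higher. Ptprc, the common leukocyte antigen CD45, read 5.97, 6.10, 9.34 and 6.07 in denervated replicates 1 to 4, against 5.39, 5.69, 6.09 and 5.43 in innervated replicates 1 to 4. Its difference of 1.22 did not pass (adjusted p = 0.152), and without replicate 3 it was 0.54 and passed (0.0207). The B-cell marker Ms4a1 read 3.85, 3.95, 7.45 and 3.89 in denervated replicates 1 to 4, against 4.05, 4.34, 4.47 and 4.25 in innervated replicates 1 to 4. Ms4a1 and the T-cell receptor subunit gene Cd3e, which read 7.50 on that array and 5.56 to 5.94 on the other denervated ones, were lower in denervated muscle in 3 of 4 pairs, and neither passed. These 3 genes were named after their values were seen.

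Of 10 endothelial markers 3 fell, with a median of -0.38 ± 0.02, a mean level of 6.09 to 6.56 on denervated and 6.51 to 6.95 on innervated arrays, and the largest falls in the receptor gene Kdr (-0.77) and in Emcn (-0.72). Kdr was lost without replicates 1, 2 and 4 (adjusted p of 0.0886, 0.0606 and 0.0705), and Emcn without the block (0.0679), with arrays centred on their medians (0.068) and on leaving out replicate 1 or 4 (0.151 and 0.139). Without replicates 1, 2 and 4 the endothelial falls numbered 0, 1 and 0. Of 10 fibroblast markers 1 rose, Lum, with a median of -0.09 ± 0.08. Of 7 Schwann cell markers 1 fell, Pmp22 (-1.63), with overlapping groups, and the median was 0.07 ± 0.22. The other Schwann cell markers differed by 0.37 (Ngfr), 0.26 (Erbb3), 0.13 (S100b), 0.07 (Sox10), -0.14 (Mag) and -0.33 (Mbp), and none passed. Of 9 adipocyte markers 1 fell, the lipase gene Lpl (-1.46), and the median was -0.16 ± 0.14. Of 8 satellite cell markers 1 fell, Cd34 (-0.42), and the median was 0.01 ± 0.10. Pmp22 was lost without the block (0.0816) and without replicate 1 (0.0521), and Cd34 under 7 settings, among them without the block (0.377). The share called was 30% for endothelial, 10% for fibroblast, 14.3% for Schwann cell, 11.1% for adipocyte and 12.5% for satellite cell markers. Over all genes it was 8.45%. The part of these cells in the Ostn difference was not tested.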

How the data were processed

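Total RNA of 8 muscles was amplified isothermally from 50 ng, cut to fragments of 85 bases on average, biotin-labelled and hybridised to 1 oligonucleotide array each, per the labels' protocols. The deposited values are log2 intensities of probe sets, which the authors made with GCOS and RMA (background correction, normalization between arrays and summary of probes), per the submitters' processing notes, which name mm9. For versions and filters nothing is stated in the sources used here. The platform annotation gave a single symbol for 14996 of 16755 probe sets, several for 1019 and none for 740, and the brightest probe set per gene left 14860 genes. Entrez IDs of 14805 genes were found in the RefSeq table of GRCm38.p6, used only for names and gene order. Precision is limited by the number of arrays.

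All genes were fitted with limma 3.58.1 in R 4.3.3 (group and replicate number, default eBayes, two-sided, Benjamini-Hochberg over 14860 genes; 3 residual and 4.57 prior degrees of freedom). The block follows the submitters' design, which sets each denervated muscle against the contralateral one. The p-values reflect only the spread among these arrays, which may be technical, and the labels name no batch. Ostn, the gene lists and the tests were chosen with earlier results of these data known. The 9 pathway lists and 8 marker lists came from general knowledge. Named genes are Ostn, all natriuretic peptide and receptor genes, a set of 10 regulators, of which Akt2 was not measured, the 2 called genes with the largest change in each direction per other list, the 8 most similar profiles, 2 genes on each side in the order of change and 3 on each side along the chromosome; others complete a count or were chosen after their values were seen. Simulated data had the real mean and the moderated SD of each of the 14860 genes. Their noise was independent between genes, alike on all arrays and without a replicate effect. There the fit called 20 of 50 genes with a log2 change of 0.5, all 50 at each of 1, 2 and 3, and 15 of 14660 unchanged ones. The real arrays differ in spread, so these rates need not hold for them. The 14 alternatives were other normalizations (quantile, median, cyclic loess), the dimmest 25% or 50% of genes left out, the mean of probe sets, no block or a random block, array weights, trended and robust moderation, and leaving out each replicate number.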

Additional observations from a re-analysis of the deposited data

Results flagged for a closer look

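In a group of 4 arrays, a single array was marked when its gap to the nearest of the others as a share of the whole range was above Dixon's 95% critical value. Chance marks about 1 in 20 groups, and 10 of the 130 groups of the 65 genes examined were marked. Neither Ostn group was among them. Cmbl, the closest profile to Ostn, was highest in denervated replicate 2, at 5.08 against 4.73 to 4.78 on the other denervated arrays. Rpl3l was lowest in innervated replicate 3, at 9.31 against 9.59 to 9.64. The natriuretic peptide gene Nppc was highest in innervated replicate 1, at 7.01 against 6.43 to 6.53, and the calcineurin subunit gene Ppp3cb in innervated replicate 2, at 9.77 against 9.60 to 9.62.

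The other 6 marks all fell on denervated replicate 3, one of the arrays with a narrower spread over probe sets. Npr2 read 5.75 there against 6.76 to 6.88 on the other denervated arrays, Pgam2 8.57 against 9.80 to 10.02, Pygm 9.07 against 10.49 to 10.74, and Il1rap was highest there, at 5.40 against 5.21 to 5.23. The leukocyte markers Ptprc and Ms4a1 were highest there too, at 9.34 against 5.97 to 6.10 and at 7.45 against 3.85 to 3.95. These 2 genes were picked after this array was seen to stand apart in them. Ostn itself read 4.72 on that array, within the range of the others.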

How the results depend on the processing

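The Ostn difference of -3.31 ran from -3.48 to -3.12 when a replicate number was left out. No alternative moved it by more than the SD of its 4 pair differences, 0.47, but most alternatives could not, as said above. The number of genes called was less stable. It was 1255 (529 higher, 726 lower), 800 without the replicate block (326 and 474) and 2200 with array weights (1058 and 1142), and with a replicate number left out it ran from 347 to 1641, with 137 to 861 higher and 210 to 780 lower. The simulation made calls at 4 pairs; leaving out a pair removes 1 of 3 residual degrees of freedom. Same-numbered arrays, after subtraction of the group means, correlated across genes at 0.23, -0.03, 0.45 and 0.35 for numbers 1 to 4, so number 2 shows no sign of pairing and the labels do not say that a number marks 1 animal.

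List counts moved by over 1.5 times as follows; the cause was not tested. Without the block, insulin pathway genes had 0 rises against 1, calcium and activity genes 1 against 2, and slow-fibre genes 1 fall against 2. With the block as a random effect there were 0 insulin pathway rises, 5 myokine rises against 3 and 2 slow-fibre rises against 1. Slow-fibre falls were 1 under each of the other normalizations (quantile, median, cyclic loess), and calcium and activity rises 1 after median centring. Natriuretic genes had 1 fall against 0, that of Npr2, after cyclic loess, with array weights and with the dimmest 25% or 50% left out. Processing genes had 1 rise against 0, that of Cpd, after cyclic loess, with the dimmest 50% left out and with array weights. With the dimmest 25% or 50% left out slow-fibre genes had 2 rises, and with the dimmest 50% out there were 2 insulin pathway rises and 2 falls against 1, and 5 myokine rises. With array weights there were 4 rises and 2 falls of insulin pathway genes, 5 rises of calcium and activity genes, 5 of myokines and 2 of slow-fibre genes. With a replicate number left out, rises ran from 0 to 1 for natriuretic genes, 0 to 1 for processing genes, 0 to 3 for insulin pathway genes, 1 to 3 for calcium and activity genes, 0 to 4 for myokines and 1 to 2 for slow-fibre genes; falls ran from 0 to 1 for cyclic GMP genes, 2 to 5 for calcium and activity genes, 2 to 5 for myokines, 4 to 8 for fast-fibre genes and 0 to 1 for slow-fibre genes. Marker counts moved as well. Muscle rises were 1 against 0 after quantile or cyclic loess, with array weights and without replicate 3. Fibroblast rises were 2 against 1 with the random block, after each other normalization and with array weights; they were 0 when replicate 1, 2 or 4 was omitted; fibroblast falls, against 0, were 1 with the dimmest 50% out and 2 with array weights and without replicate 3. Endothelial falls were 1 against 3 without the block and 0 to 3 on leaving out a replicate; Schwann falls were 0 against 1 without the block and without replicate 1; satellite falls were 0 against 1 without the block, with the random block, after median centring and without each replicate in turn. Array weights gave 6 leukocyte rises against 3 and 1 osteoblast fall against 0. With the dimmest 50% out the median was 1.02 over 6 leukocyte and -0.30 for the 1 osteoblast marker left. Of 30 genes named by the rule and called, 15 kept their call under every alternative in which they were tested, among them Irs1, Ppargc1a, Camk2a, Hdac4, Fndc5 and Myoz1, and none changed direction. Without detection values, signal over background sets the limit for Ostn in denervated muscle.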
